A study of Mus musculus with 3 samples.

Results

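*Jag1*, *Dll4*, *Notch1*, *Notch2*, *Notch3*, *Notch4*, *Hes1*, *Hey1*, *Hey2* and *Heyl* were examined in single cells of the mouse ovary. These 10 genes, 2 Notch ligands, 4 receptors and 4 targets, were chosen by name out of 24958 genes in the deposited table, and all 10 were found in it. Ovaries of mice were collected at 0, 1 and 6 h after an injection of human chorionic gonadotropin (hCG), the hormone used in place of the luteinizing hormone surge, and each time point was 1 droplet library (10x Genomics), named H0, H1 and H6. The study's methods describe ovaries of prepubertal Kunming mice given pregnant mare serum gonadotropin (PMSG), which drives follicle growth. Whether the mice at 1 and 6 h also had PMSG, and how many animals each library held, are not given in the sources used here.

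Notch signalling runs between neighbouring cells. A ligand of the Jagged or Delta-like family on 1 cell binds a Notch receptor on the next, the receptor is cut by a protease and by gamma-secretase, and its intracellular part enters the nucleus and joins the DNA-binding protein RBPJ to switch on genes such as the *Hes* and *Hey* repressors. In blood vessels the pathway is known for arterial fate and for the selection of sprouting cells, and *Notch3* is known as the receptor of mural cells. In the ovary Notch signals are known between the oocyte, granulosa cells (GCs) and the theca during follicle formation and growth.

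The table held 31776 cells, whose names ended in 1, 2 or 3. These endings gave 3 barcode sets of 10384, 9917 and 11475 cells, with medians of 6093, 6352 and 6524 unique molecular identifiers (UMIs, counts of captured RNA molecules) per cell. The labels number the libraries H0, H1 and H6 as 1, 2 and 3, but no source used here says that the endings follow these numbers, so the sets are named by their endings only and no time is given to any of them. Each set is 1 sample, so no difference below has a replicate check, and no p-value was computed. A level is the summed UMIs of a gene per 10000 summed UMIs of the same cells, and every interval is an exact 95% interval that covers counting error only. Barcodes shared between sets numbered 27 for sets 1 and 2, 46 for sets 1 and 3, and 39 for sets 2 and 3.

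Cells were put into classes by marker genes that hold none of the 10 genes. The gates took 25070 cells (78.9%), of which 2859 (11.4%) lay near the cut, and left 15%, 15.2% and 31.7% of sets 1, 2 and 3 without a class. In order of sets 1, 2 and 3 the granulosa gate held 3788, 3868 and 2541 cells, and the theca gate 1137, 478 and 409. The stroma gate held 3083, 2913 and 3899 cells, and the endothelial gate 460, 714 and 446. Pericytes, the mural cells of small vessels, numbered 102, 136 and 98, smooth muscle cells 147, 135 and 236, and myeloid cells 92, 129 and 147. Near the cut lay 442, 374 and 1191 of the cells gated as GCs in sets 1, 2 and 3, so set 3 had the most such cells in its smallest granulosa gate. The summed level of the 12 endothelial markers within their gate was nearly level across the sets, at 70.0, 72.3 and 73.8 UMIs per 10000. That of the 10 granulosa markers within the granulosa gate was 144, 143 and 50.2, so the cells gated as GCs in set 3 carried far less of the transcripts that define the gate. The 8 stroma markers had 75.1, 73.8 and 46.7 in their gate, and the 9 pericyte markers 59.2, 64.6 and 49.6.

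All 10 genes are protein coding. On GRCm38 (mm10, GENCODE annotation) *Jag1* lies at chr2:137081456-137116644 on the minus strand and *Dll4* at chr2:119325784-119335962 on the plus strand. The receptors lie at chr2:26457903-26516663 (*Notch1*, minus), chr3:98013527-98150361 (*Notch2*, plus), chr17:32120820-32166852 (*Notch3*, minus) and chr17:34564268-34588503 (*Notch4*, plus). The targets lie at chr16:30064384-30067796 (*Hes1*, plus), chr3:8663359-8667256 (*Hey1*, minus), chr10:30832359-30842801 (*Hey2*, minus) and chr4:123233556-123249875 (*Heyl*, plus).

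*Hey2* is shown by its promoter because it was the only target with an entry in the sequence table used, and because between sets 1 and 2 its level in GCs went against those of the other targets. The RefSeq table (GRCm38.p6) had an entry for 7 of the 10 genes, and had none for *Hes1*, *Hey1* and *Heyl*. The 250 bases before the start of *Hey2*, chr10:30842784-30843033 on the minus strand, read 5′ to 3′ with the letters of the motif GTGGGAA, here on the opposite strand, in capitals:
Hey2: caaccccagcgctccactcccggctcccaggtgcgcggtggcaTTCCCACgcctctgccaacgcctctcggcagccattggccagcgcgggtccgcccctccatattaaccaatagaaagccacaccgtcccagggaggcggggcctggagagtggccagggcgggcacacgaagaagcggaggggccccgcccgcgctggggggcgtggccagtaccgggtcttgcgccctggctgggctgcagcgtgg
GTGGGAA and the shorter TGGGAA, which lies within it, are letters known as binding sites of RBPJ. Both were searched on both strands. The match stood at positions -207 to -201 from the start, and none of the other 6 promoters held either motif. Over all 32851 promoters of the same length 5.42% held GTGGGAA and 21.6% held TGGGAA, and a match of letters is a description of the sequence only.

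The 10 genes divided the ovary mainly along its vessels. Over all sets together, 6 had their highest level in endothelial cells (*Jag1*, *Dll4*, *Notch1*, *Notch4*, *Hes1* and *Hey1*), 3 in pericytes (*Notch2*, *Notch3* and *Heyl*) and 1 in GCs (*Hey2*). Within single sets *Hes1* was highest in pericytes (sets 1 and 3) or smooth muscle (set 2), *Notch2* was highest in GCs in set 3 and *Hey2* in smooth muscle in set 2, and with classes taken from Louvain clusters, which group cells by overall likeness of expression, *Jag1* and *Hes1* were highest in pericytes. Set against all other gated cells, 6 of the 10 were at least 2-fold higher in endothelial cells, where 12.7% of all tested genes were. In pericytes 7 of 10 were, against 12.6% of all genes, though *Notch2* (2.11) and *Hes1* (2.04) were near the fold and past it in 8 of 13 alternative settings each. In smooth muscle 2 of 10 were, against 7.35%, and in GCs 1 of 10 was, against 11.9%. The smooth muscle calls, *Jag1* and *Notch3*, came to 0.936 and 0.403 by Louvain cluster, and the make-up of that gate is given below. The median ratio of the 10 genes was 3.85 in endothelial cells and 2.80 in pericytes. Levels of different genes are not compared with each other here.

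**Figure D1:**
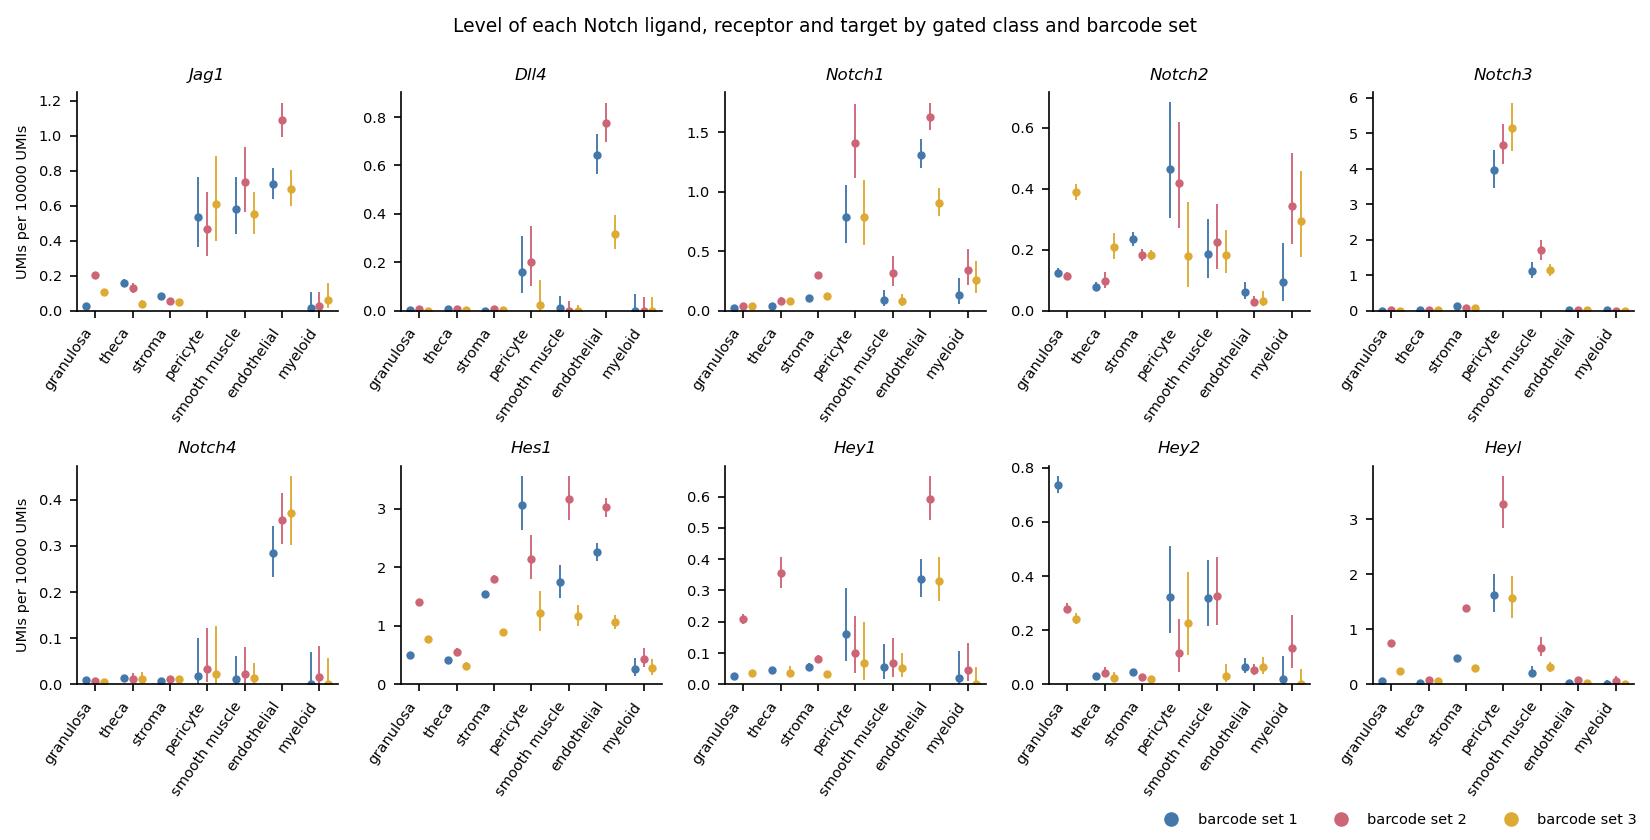
Levels of the 10 genes (UMIs per 10000 UMIs, 1 panel a gene, each with its own axis) in 7 gated classes, with 1 point for each barcode set and bars for the exact 95% counting interval. *Dll4* and *Notch4* stand up in endothelial cells, *Notch3* and *Heyl* in pericytes and *Hey2* in granulosa cells, and *Heyl* has its highest point in set 2 in each class. *Hey1* is highest in endothelial cells within each set, but its theca point of set 2 (0.355) lies above the endothelial points of sets 1 and 3 (0.335 and 0.330).

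The ligand *Dll4*, known for arterial fate and for restraining sprouting in the cells beside it, had the largest class ratio of the 10. Its levels in endothelial cells were 0.643, 0.775 and 0.319 in sets 1, 2 and 3, and in GCs 0.00140, 0.00594 and 0, the last being 0 of 22574169 UMIs, where 3 UMIs would be a level of 0.00133 and the exact upper bound is 0.00163. The endothelial sets thus lay far above every granulosa value, and set 3 lay below the other two. Endothelial cells held 86.2% (83.6 to 88.5) of all *Dll4* UMIs and 4.62% of all UMIs, and their level was 139-fold that of the other gated cells (110 to 177). After each cell was thinned to 3000 UMIs, a *Dll4* UMI was found in 15.2% of endothelial cells and 0.0411% of GCs, with medians of 5111 and 6703 UMIs before thinning (25.2% and 0.216% unthinned). Pericytes came next with levels of 0.161, 0.201 and 0.0226, which rest on 9, 12 and 1 UMIs. The 12 endothelial markers summed to 3.82, 4.67 and 5.21 per 10000 in those pericytes, and their part in the pericyte value of *Dll4* was not tested.

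*Jag1*, the ligand known for signalling to mural cells, was spread over the vessel wall and, at lower level, the follicle. Endothelial cells had 0.724, 1.09 and 0.697, smooth muscle 0.584, 0.734 and 0.552, and pericytes 0.538, 0.469 and 0.609 in the 3 sets. Endothelial cells stood above the smooth muscle gate as a whole over the table (1.43-fold, 1.23 to 1.67), but the interval spanned 1 in set 1. In set 3 pericytes came next, and that interval spanned 1 too. Smooth muscle and pericytes did not differ beyond their interval (1.14-fold, 0.884 to 1.49). The smooth muscle gate held cells of unlike *Jag1* level, given below. GCs had 0.0262, 0.204 and 0.110, with set 2 highest and no overlap of the 3 intervals. Theca cells ran in another order, at 0.161, 0.128 and 0.0396, and stroma had 0.0870, 0.0557 and 0.0521. Because GCs were many, they still held 27.1% of all *Jag1* UMIs, close to the 27.9% of endothelial cells.

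The receptor *Notch1* followed the vessels too. Its endothelial levels were 1.31, 1.63 and 0.909 and its pericyte levels 0.789, 1.41 and 0.790. The 2 classes differed over the table (1.32-fold, 1.12 to 1.56) and in set 1 (1.66-fold, 1.22 to 2.32), while the intervals in sets 2 and 3 spanned 1. Endothelial cells were 13.5-fold (12.6 to 14.4) and pericytes 6.19-fold (5.26 to 7.25) above all other gated cells. Stroma had 0.104, 0.301 and 0.125, and GCs had the lowest level of the 7 classes, at 0.0245, 0.0413 and 0.0377. Thinned, a *Notch1* UMI was present in 34.3% of endothelial cells and 0.976% of GCs (51.0% and 2.50% unthinned).

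*Notch4*, the endothelial receptor, had endothelial levels of 0.284, 0.356 and 0.371, whose intervals overlapped. Its highest other class was the pericyte gate, where 4 UMIs gave 0.0250, and endothelial cells stood 35.0-fold (29.2 to 42.2) above all other gated cells. *Notch3*, the receptor of mural cells, had pericyte levels of 3.96, 4.67 and 5.14 and smooth muscle levels of 1.12, 1.71 and 1.14. No other class passed 0.122, the stroma level of set 1. Pericytes were 77.0-fold (70.1 to 84.6) above all other gated cells, and a *Notch3* UMI stood in 65.1% of thinned pericytes and 0.226% of thinned GCs (74.4% and 0.677% unthinned, with medians of 4077.5 and 6703 UMIs).

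The smooth muscle gate was not 1 kind of cell for these genes. Of its 518 cells, 119 lay in the pericyte clusters of a Louvain clustering that used none of the pathway genes, and 399 lay elsewhere. *Notch3* was 5.28 (4.78 to 5.81) in the 119 cells and 0.0621 (0.0355 to 0.101) in the 399. *Jag1* was 2.04 (1.74 to 2.38) against 0.171 (0.124 to 0.229), and *Hes1* 4.92 (4.45 to 5.44) against 0.904 (0.791 to 1.03). In the 119 cells both genes lay above the endothelial gate, which had 0.872 (0.818 to 0.928) and 2.29 (2.20 to 2.38). So the smooth muscle levels of *Notch3* and *Jag1* above came mostly from the cells that clustered with pericytes. Those cells held 417 UMIs of *Notch3* and 161 of *Jag1*, and the rest held 16 and 44. For *Hes1* the numbers were 389 and 233, for *Heyl* 69 and 58, and for *Notch2* 13 and 53. *Notch3* in the rest was 0.0563, 0.0808 and 0.0560 in the 3 sets, close to stroma, which had 0.122, 0.0796 and 0.0674. Each set had 1 cluster led by *Actg2*, *Cnn1*, *Myh11* and *Tagln*, genes of the contractile apparatus, with 319, 507 and 302 cells. *Notch3* in these clusters was 0.0480, 0.0815 and 0.0373, low in all 3 sets. The stroma gate took most of the gated cells of this cluster in sets 1 and 2, and the smooth muscle gate in set 3.

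*Notch2*, a receptor known from GCs, was spread over the follicle and the stroma. GCs held 34.1% of its UMIs and stroma 27.9%, close to their 33.9% and 27.4% of all UMIs. Its levels were 0.125, 0.114 and 0.388 in GCs, 0.0796, 0.0977 and 0.210 in theca cells, and 0.234, 0.183 and 0.182 in stroma. GCs and theca cells were therefore highest in set 3, and stroma in set 1. Pericytes had 0.466, 0.419 and 0.181, which are 26, 25 and 8 UMIs, and did not differ from myeloid cells beyond the interval (1.45-fold, 0.971 to 2.17). Endothelial cells had the lowest level of all, 0.0621, 0.0299 and 0.0334.

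Among the targets, *Hes1*, a repressor induced by Notch and by other signals, had UMIs in every class. Its levels were 2.26, 3.02 and 1.06 in endothelial cells, 3.07, 2.14 and 1.22 in pericytes, and 1.74, 3.16 and 1.17 in smooth muscle. Endothelial cells and pericytes were not distinct over the table (1.04-fold, 0.927 to 1.16), and pericytes led in set 1 (1.36-fold over endothelial cells, 1.14 to 1.60). The leading class was not distinct from the next in set 2 (smooth muscle over endothelial cells, 1.05-fold, 0.918 to 1.19) or set 3 (pericytes over smooth muscle, 1.04-fold, 0.756 to 1.42). Stroma had 1.54, 1.80 and 0.891 and GCs 0.50, 1.40 and 0.780. Theca cells (0.412, 0.556 and 0.321) and myeloid cells (0.265, 0.435 and 0.277, from 14, 29 and 18 UMIs) were lowest. The granulosa markers summed to between 4.99 and 11.2 in those myeloid cells, which should lack them, and the part of free RNA in the myeloid values of *Hes1* was not tested.

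*Hey1*, a repressor of the endothelium, had endothelial levels of 0.335, 0.591 and 0.330 and stood 5.45-fold (4.91 to 6.04) above the other gated cells. GCs and theca cells had it mainly in set 2, with 0.0273, 0.208 and 0.0354 in GCs and 0.0445, 0.355 and 0.0375 in theca cells. In both classes set 2 lay well clear of the other sets. Within set 2 endothelial cells stood 1.66-fold (1.38 to 2.01) above theca cells, whose level passed the endothelial levels of sets 1 and 3. *Heyl* was highest in pericytes, at 1.63, 3.28 and 1.56, with 5.52-fold (4.95 to 6.13) over the other gated cells. Stroma followed with 0.485, 1.38 and 0.298, and GCs had 0.0692, 0.754 and 0.251. Stroma held 48.5% of its UMIs against 27.4% of all UMIs, and GCs 34.0% against 33.9%. Of the 3050 UMIs in GCs 2285 were in set 2. Endothelial cells had little *Heyl*, with 0.0243, 0.0790 and 0.0260.

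Among the gated classes, *Hey2* was the one target whose level over all sets was highest in GCs. Its granulosa levels were 0.737, 0.280 and 0.242, with set 1 above the others, and GCs held 76.3% of its UMIs. They stood 10.5-fold (9.50 to 11.6) above the other gated cells, and a *Hey2* UMI was found in 11.2% of thinned GCs and 0.80% of thinned stroma cells (23.2% and 1.71% unthinned, with medians of 6703 and 6001 UMIs). Pericytes (0.323, 0.117 and 0.226) and smooth muscle (0.320, 0.328 and 0.0317) came next. In set 2 smooth muscle and GCs were not distinct (1.17-fold, 0.778 to 1.69), nor were GCs and pericytes in set 3 (1.07-fold, 0.579 to 2.25). The smooth muscle cells in pericyte clusters had *Hey2* at 0.683 (0.513 to 0.892), above the 0.430 of GCs, and the rest of that gate had 0.0349. By set these cells had 1.22, 0.975 and 0.122, above GCs in sets 1 and 2 but not in set 3. Stroma and theca cells had 0.0463 or less in every set.

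Within the endothelium the genes separated by vessel type. Subtypes were gated with markers of arteries, veins, capillaries and lymphatics, which left 57.2%, 52.2% and 61.2% of the cells of sets 1, 2 and 3 without one. Arterial-type cells numbered 63, 142 and 64, which is 13.7%, 19.9% and 14.3% of the gate. Over the 3 sets *Hey1* was 13.2-fold (9.75 to 18.2) higher in them than in the other subtypes and *Jag1* 10.4-fold (8.54 to 12.7). *Notch4* was 4.13-fold (3.13 to 5.49), *Dll4* 4.07-fold (3.32 to 5.01) and *Notch1* 1.38-fold (1.19 to 1.59) higher. *Hes1* had a ratio of 0.762 (0.667 to 0.870), which did not hold in set 3.

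By set, arterial-type cells had *Jag1* levels of 2.89, 4.20 and 3.81, *Hey1* levels of 1.71, 2.19 and 1.46, and *Dll4* levels of 2.02, 1.94 and 0.784. Venous-type cells had *Jag1* at 0.583, 0.565 and 0.495 and *Hes1* at 2.75, 3.5 and 0.743. Capillary-type cells had *Hes1* at 2.58, 3.96 and 1.14 and *Dll4* at 0.655, 0.698 and 0.583. The arterial sets of *Jag1* lay above every venous or capillary value, while arterial *Hes1*, at 1.73, 2.10 and 1.38, lay below both other types in sets 1 and 2 and above both in set 3. Arterial over the other subtypes, the *Hes1* ratio was 0.810 (0.616 to 1.05), 0.633 (0.532 to 0.751) and 1.42 (0.963 to 2.08) in sets 1, 2 and 3, so only the interval of set 2 lay clear of 1. Lymphatic-type cells, 65 in all, held 1 UMI of *Notch4* and 3 of *Hey1* but 114 of *Notch1*. Tip-type cells, the sprouting cells of growing vessels, were 11 in all and too few to describe.

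**Figure D2:**
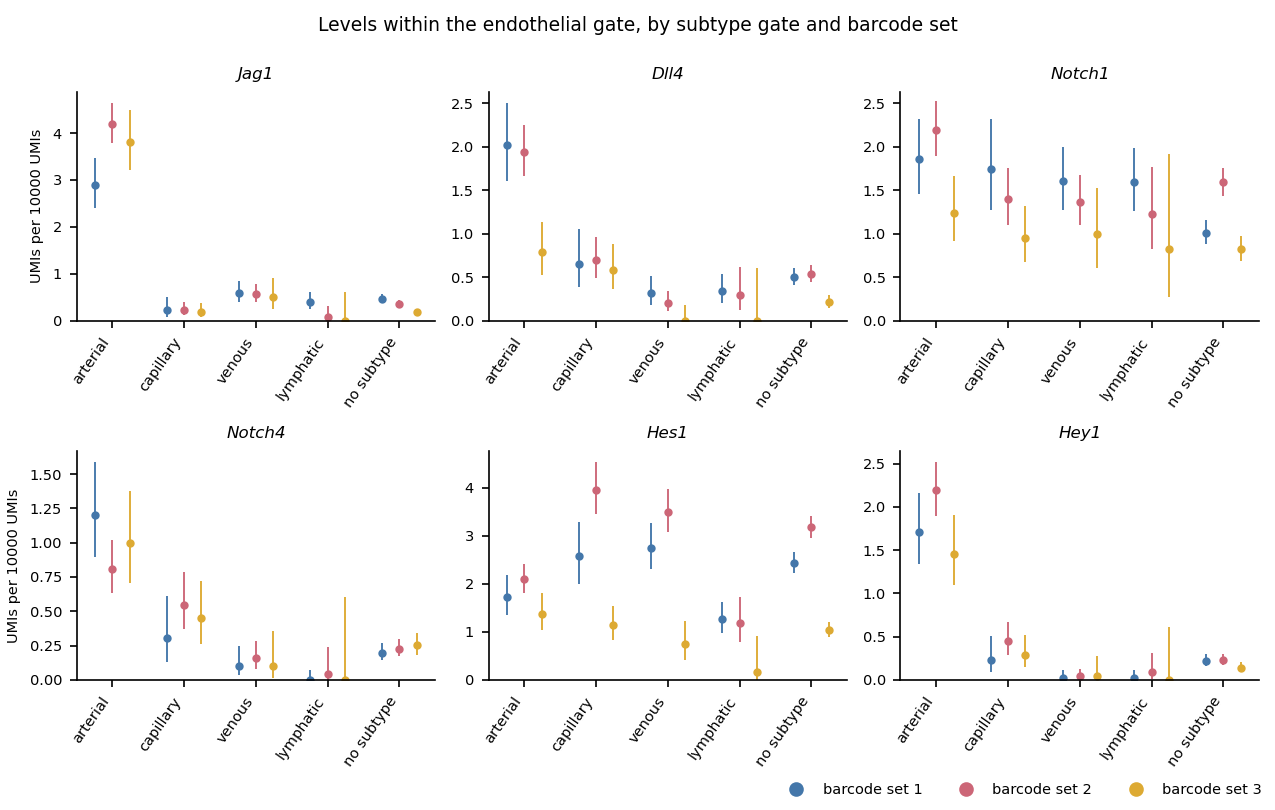
Levels (UMIs per 10000 UMIs) within the endothelial gate, by subtype gate and barcode set, with exact 95% counting intervals. *Jag1* and *Hey1* stand apart in arterial-type cells, and *Hes1* of set 3 lies below sets 1 and 2 in the venous and capillary types.

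Endothelial cells in which a *Dll4* UMI was seen (408 of 1620) were compared with the rest. They had *Hey1* at 0.794 against 0.264, a ratio of 3.01 (2.50 to 3.63), and *Jag1* at 1.56 against 0.523, a ratio of 2.98 (2.61 to 3.40). *Notch4* had a ratio of 1.91 (1.55 to 2.35), and *Hes1* of 0.987 (0.908 to 1.07), though its ratio was 0.705 (0.627 to 0.792) within set 2 and 1.13 and 1.26 within sets 1 and 3. The cells with a *Dll4* UMI were deeper, with a median of 6186 UMIs against 4816.5, and the part of depth and of arterial identity in these ratios was not tested. In GCs with a *Jag1* UMI (596 of 10197), *Heyl* had a ratio of 1.95 (1.76 to 2.16) over the sets together. Within set 1 it was 1.10 (0.437 to 2.32), within set 2 it was 0.989 (0.864 to 1.13) and within set 3 it was 4.37 (3.63 to 5.25), the one set whose interval did not span 1. These GCs were deeper as well, with medians of 8164 against 6654 UMIs over the table and 11104 against 7426 in set 3, and the expanding cumulus cells of set 3, described below, were high in both genes. Among the other targets, *Hey1* had a ratio of 1.39 (1.11 to 1.74) within set 2, where the medians were 6988 and 6816 UMIs. *Hes1* had 1.38 (1.19 to 1.60) within set 3. The other intervals of *Hes1*, *Hey1* and *Hey2* within single sets spanned 1. The part of depth and of the expanding cumulus cells in these ratios was not tested.

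Barcode set 2 was then set against set 1 in each class. A gene was counted as differing where its level was at least 1.5-fold apart and 30 or more UMIs were summed. Over all genes the median ratio was 0.722 in GCs and 0.709 in theca cells, between 0.871 and 0.970 in the other 4 classes, so a ratio of 1 on this scale is above the median gene in GCs. In GCs 52.6% of all genes were 1.5-fold apart (10.3% higher, 42.3% lower), and 19.8% higher with 18.1% lower once ratios were divided by that median, a step chosen after seeing the data. Of the 9 Notch genes with enough UMIs in GCs, 5 were higher in set 2 and 1 was lower, and 6 and 1 after the division.

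The genes higher in GCs of set 2 were the ligand *Jag1* (7.78-fold, 6.12 to 10.0), the targets *Heyl* (10.9-fold, 9.43 to 12.7), *Hey1* (7.63-fold, 6.02 to 9.78) and *Hes1* (2.80-fold, 2.64 to 2.98), and *Notch1* (1.69-fold, 1.25 to 2.29). *Hey2* was lower, at 0.380 (0.351 to 0.412). *Notch2* had a ratio of 0.908 (0.781 to 1.06). A ligand and 3 targets were thus higher, and another target lower, in the same gate. In the GCs of set 2 the summed level of 7 genes known to answer hCG, among them *Pgr*, *Ptgs2* and *Areg*, was 33.4 against 1.44 in set 1. That of 12 genes known to rise when tissue is dissociated, such as *Fos*, *Egr1* and *Hspa1a*, was 106 against 62.5, and the part of either in the Notch values was not tested.

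In theca cells, where 54.3% of all genes were 1.5-fold apart, *Hey1* (7.98-fold, 6.06 to 10.6), *Heyl* (2.89-fold, 1.90 to 4.42) and *Notch1* (2.06-fold, 1.39 to 3.04) were higher in set 2, out of 8 with enough UMIs, and none of the 8 was lower. All genes split 9.88% higher and 44.4% lower there, and 19.7% and 20.2% after division by the median, when *Notch2*, *Hes1* and *Hey2* joined the higher ones. *Jag1*, which was higher in GCs, had a ratio of 0.794 (0.603 to 1.03) in theca cells. The dissociation genes summed to 74.2 and 102 in theca cells of sets 1 and 2, and the 7 genes known to answer hCG to 11.2 and 65.3. The part of either was not tested.

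In stroma (24.8% of all genes apart) *Notch1* (2.91-fold, 2.46 to 3.45) and *Heyl* (2.84-fold, 2.63 to 3.07) were higher in set 2. *Jag1* (0.640, 0.495 to 0.825), *Notch3* (0.654, 0.528 to 0.808) and *Hey2* (0.551, 0.378 to 0.794) were lower, of which *Hey2* alone was past 1.5-fold after division by the median. *Notch4* and *Hey1* were then past it on the higher side, so the split went from 2 higher and 3 lower to 4 and 1, and that of all genes from 6.50% higher and 18.3% lower to 10.3% and 11.1%. The dissociation genes had the opposite order in stroma, 123 in set 1 and 105 in set 2.

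In pericytes (21.2% of all genes) *Heyl* (2.01-fold, 1.56 to 2.61) and *Notch1* (1.78-fold, 1.22 to 2.63) were higher in set 2. *Notch3* had 1.18 (0.984 to 1.41) and *Hes1* 0.699 (0.551 to 0.884). In smooth muscle (18.2%) *Notch1* (3.58-fold, from 8 and 28 UMIs), *Heyl* (3.18-fold), *Hes1* (1.81-fold) and *Notch3* (1.52-fold) were higher. The smooth muscle cells in pericyte clusters were 31 of 147 in set 1 and 41 of 135 in set 2. *Notch3* in them was 4.98 (4.04 to 6.07) and 5.48 (4.62 to 6.44), and *Hes1* 4.78 (3.86 to 5.84) and 6.57 (5.63 to 7.61). The intervals of sets 1 and 2 overlapped for both, for *Hes1* only between 5.63 and 5.84. Such overlap does not show that the sets were level. In the rest of the gate *Notch3* was 0.0563 and 0.0808, and *Hes1* 0.902 (0.694 to 1.15) and 1.70 (1.39 to 2.05). *Heyl* was 0.660 (0.352 to 1.13) and 1.01 (0.668 to 1.47) in the cells of pericyte clusters. In the rest it was 0.0845 (0.0310 to 0.184) and 0.517 (0.354 to 0.730). The share of cells in pericyte clusters was larger in set 2, and its part in these ratios was not tested. In endothelial cells (13.9%) *Heyl* (3.25-fold, from 9 and 37 UMIs), *Hey1* (1.77-fold, 1.42 to 2.20) and *Jag1* (1.5-fold, 1.29 to 1.75) were higher and *Notch2* (0.481, 0.229 to 0.975) lower, but *Jag1* was past the fold in 5 of 12 alternative settings only.

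*Heyl* was thus past 1.5-fold, and higher, in each of the 6 classes compared, as it was over all cells (0.165 and 0.778). In endothelial cells it was low, and the granulosa markers there also summed higher in set 2, to 6.67 against 3.78 in set 1. In theca cells it was low too, at 0.0295 in set 1 and 0.0853 in set 2. The granulosa markers there summed to 15.2 and 22.3. The part of free RNA in the endothelial and theca ratios was not tested. The share of arterial-type cells in the endothelial gate was also higher in set 2. Within the arterial type *Hey1* had 1.28 (0.969 to 1.70). *Jag1* had 1.45 (1.18 to 1.80) there, close to its ratio in the whole gate. In endothelial cells without a subtype *Hey1* had 1.05 (0.694 to 1.60) and *Jag1* 0.782 (0.576 to 1.06). Capillary-type cells had *Hey1* at 1.96 (0.780 to 5.86), and venous-type cells had *Jag1* at 0.968 (0.581 to 1.63). The part of the arterial share in the endothelial ratios was not tested. *Dll4* (1.21, 1.02 to 1.43) and *Notch4* (1.26, 0.979 to 1.62) stayed under 1.5-fold in endothelial cells.

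**Figure D3:**
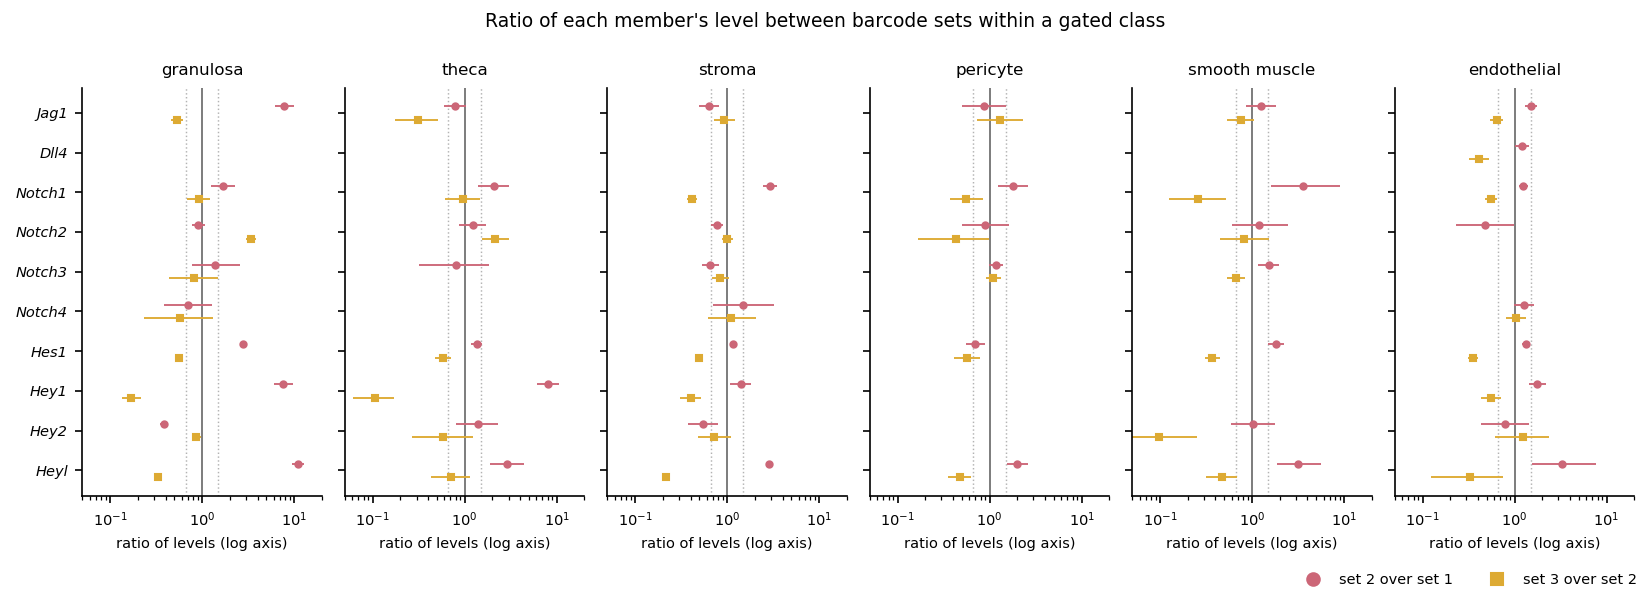
Ratios of level between barcode sets (log axis; set 2 over 1 and set 3 over 2) for the 10 genes in 6 classes, with exact 95% counting intervals and dotted lines at 1.5-fold either way. Pairs with fewer than 30 summed UMIs and ratios of 0 are left out. For *Heyl*, *Hey1* and *Hes1* most ratios of set 3 over 2 lie below 1, and *Notch2* in granulosa and theca cells lies above it.

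Set 3 was set against set 2 in the same way, and since both comparisons use set 2, they are not independent of each other. In GCs 52.4% of all genes were 1.5-fold apart, 36.6% higher and 15.8% lower, around a median ratio of 1.25 (1.24 in theca cells and 0.957 to 1.02 in the other 4 classes). After division by the median the split was 22.5% higher and 23.9% lower. *Notch2* was higher in set 3 (3.41-fold, 3.0 to 3.87). *Hey1* (0.17, 0.133 to 0.215), *Heyl* (0.333, 0.303 to 0.365), *Jag1* (0.539, 0.463 to 0.625) and *Hes1* (0.557, 0.526 to 0.588) were lower, as was *Notch4* on 21 and 9 UMIs (0.575, 0.232 to 1.31). *Hey2* had 0.865 (0.775 to 0.964). The granulosa gate of set 3 had the lower marker sum given above (50.2 against 143), and 31.7% of set 3 had no class. Near the cut lay 1191 of 2541 GCs of set 3 and 374 of 3868 of set 2. With a stricter gate the ratio of *Notch2* was 2.09, that of *Jag1* 0.202, that of *Heyl* 0.262, that of *Hey1* 0.137 and that of *Hes1* 0.550. Over all cells of sets 2 and 3, without any gate, *Notch2* stood at 0.134 and 0.294, *Hes1* at 1.60 and 0.797, *Heyl* at 0.778 and 0.226, *Jag1* at 0.210 and 0.113, and *Hey1* at 0.193 and 0.0442. The part of the gate in these ratios was not tested.

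In theca cells (54.7% of all genes, 37.6% higher and 17.1% lower, or 24.8% and 25.3% after the division) *Notch2* was again higher, 2.15-fold (1.53 to 3.05). *Hey1* (0.105, 0.0613 to 0.171), *Jag1* (0.309, 0.176 to 0.518), *Hes1* (0.577, 0.472 to 0.702) and *Hey2* (0.586, 0.267 to 1.22) were lower. In stroma (43.6%) 4 genes were lower, *Heyl* (0.216, 0.20 to 0.233), *Hey1* (0.401, 0.306 to 0.524), *Notch1* (0.417, 0.364 to 0.476) and *Hes1* (0.495, 0.470 to 0.521), and none of the 9 with enough UMIs was higher. *Notch2* had 0.998 (0.870 to 1.15) in stroma, where its sets 2 and 3 were level.

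In pericytes (32.6%) *Notch2* (0.431, from 25 and 8 UMIs), *Heyl* (0.474, 0.355 to 0.627), *Notch1* (0.561, 0.367 to 0.842) and *Hes1* (0.568, 0.406 to 0.787) were lower in set 3, and *Notch3* had 1.10 (0.920 to 1.32). In smooth muscle (36.3%) *Hey2* (0.0969, from 29 and 5 UMIs), *Notch1* (0.261), *Hes1* (0.369) and *Heyl* (0.467) were lower, with 41 of 135 and 47 of 236 cells in pericyte clusters. *Hes1* was 6.57 and 3.67 in those cells and 1.70 and 0.512 in the rest, lower in set 3 in both. *Heyl* was 1.01 (0.668 to 1.47) and 0.888 (0.594 to 1.27) in those cells, with overlapping intervals, and 0.517 (0.354 to 0.730) and 0.160 (0.0978 to 0.247) in the rest. In endothelial cells (27.5%) 6 genes were lower, *Heyl* (0.329), *Hes1* (0.353, 0.309 to 0.401), *Dll4* (0.412, 0.321 to 0.522), *Notch1* (0.558, 0.481 to 0.645), *Hey1* (0.558, 0.435 to 0.711) and *Jag1* (0.640, 0.539 to 0.758), the last no longer past 1.5-fold after division by the median. *Notch4* had 1.04 (0.804 to 1.34). The dissociation genes summed to 43.9 in endothelial cells of set 3 against 60.2 in set 2, 73.9 against 112 in pericytes, 55 against 102 in theca cells and 84.5 against 106 in GCs. Their sums were nearly level in smooth muscle, 77.0 against 76.9, and in stroma, 99.7 against 105, where *Hes1* was lower too. Of the 12 genes, 2 were 1.5-fold higher and 3 lower in smooth muscle, and 3 were higher and 3 lower in stroma. The 7 genes known to answer hCG summed lower in set 3 in each of these classes, such as 7.28 against 33.4 in GCs and 39.3 against 65.3 in theca cells. In smooth muscle, with 1.78 against 2.42, only the sum was lower, since 3 of the 7 genes were 1.5-fold higher and 3 lower. The part of either list was not tested.

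*Hes1* was past 1.5-fold, and lower, in all 6 classes. Within the arterial type *Dll4* was at 0.405 (0.263 to 0.602) and *Notch1* at 0.569 (0.403 to 0.789), close to their values in the whole endothelial gate, while *Jag1* was at 0.907 (0.742 to 1.10). *Hes1* stood at 0.212 (0.117 to 0.357) in the venous type, 0.288 (0.202 to 0.401) in the capillary type and 0.658 (0.473 to 0.902) in the arterial type.

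GCs were also divided into subtypes by markers of preantral, antral mural, mitotic, atretic and expanding cumulus cells. The subtypes were not equally filled, since the antral mural type was 46.0%, 52.0% and 4.13% of the gate in sets 1, 2 and 3, and its markers *Lhcgr*, *Cyp19a1* and *Nppc* are themselves known to change after hCG. Within the antral mural type, set 2 had *Heyl* 22.8-fold (16.7 to 31.7), *Hey1* 10.1-fold (7.15 to 14.7), *Jag1* 9.09-fold (6.17 to 13.9) and *Hes1* 3.87-fold (3.47 to 4.32) above set 1, and *Hey2* at 0.291 (0.259 to 0.327). The mural levels of *Hey2* were 0.923, 0.269 and 0.193. These 5 genes thus had the same order of sets 1 and 2 as in the whole gate, and *Notch1* had 1.39 (0.840 to 2.36). The atretic type had *Jag1* at 11.6 (6.33 to 23.4), *Hey1* at 9.68 (4.92 to 21.2) and *Hes1* at 3.48 (2.95 to 4.12), with intervals that overlapped the mural ones. It had *Heyl* at 7.48 (5.34 to 10.7) and *Hey2* at 0.454 (0.351 to 0.581), both nearer to 1 than in the mural type and with no overlap of the intervals.

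Preantral-type GCs had another pattern for *Hes1*. Their levels were 3.24, 2.91 and 1.02, against mural levels of 0.325, 1.26 and 0.842, and set 2 over set 1 was 0.898 (0.793 to 1.02). In set 1 the preantral type was 9.66-fold (8.59 to 10.9) above the other subtypes for *Hes1*, and in set 2 it was 2.33-fold (2.12 to 2.55). *Notch2* was higher in set 3 than in set 2 in each of the 5 subtypes and in the cells without one, from 2.38-fold (1.48 to 3.80) in the atretic type to 6.07-fold (3.83 to 10.2) in the mitotic type, whose levels were 0.139, 0.0781 and 0.474. Expanding cumulus cells, 0, 36 and 76 in the 3 sets, had *Jag1* at 0.786 in set 3, 11.4-fold (8.07 to 16.0) above the other subtypes of that set, and *Heyl* was 5.94-fold (4.68 to 7.50) above them. In set 2 *Jag1* in these cells was 0.296 from 8 UMIs, 1.55-fold (0.667 to 3.09), so the ratio of *Jag1* lay clear of 1 in set 3 only. The cells had *Heyl* at 1.70 and 1.30 in sets 2 and 3. In set 2 *Heyl* was 2.49-fold (1.81 to 3.33) above the other subtypes, so its ratio lay clear of 1 in both sets.

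**Figure D4:**
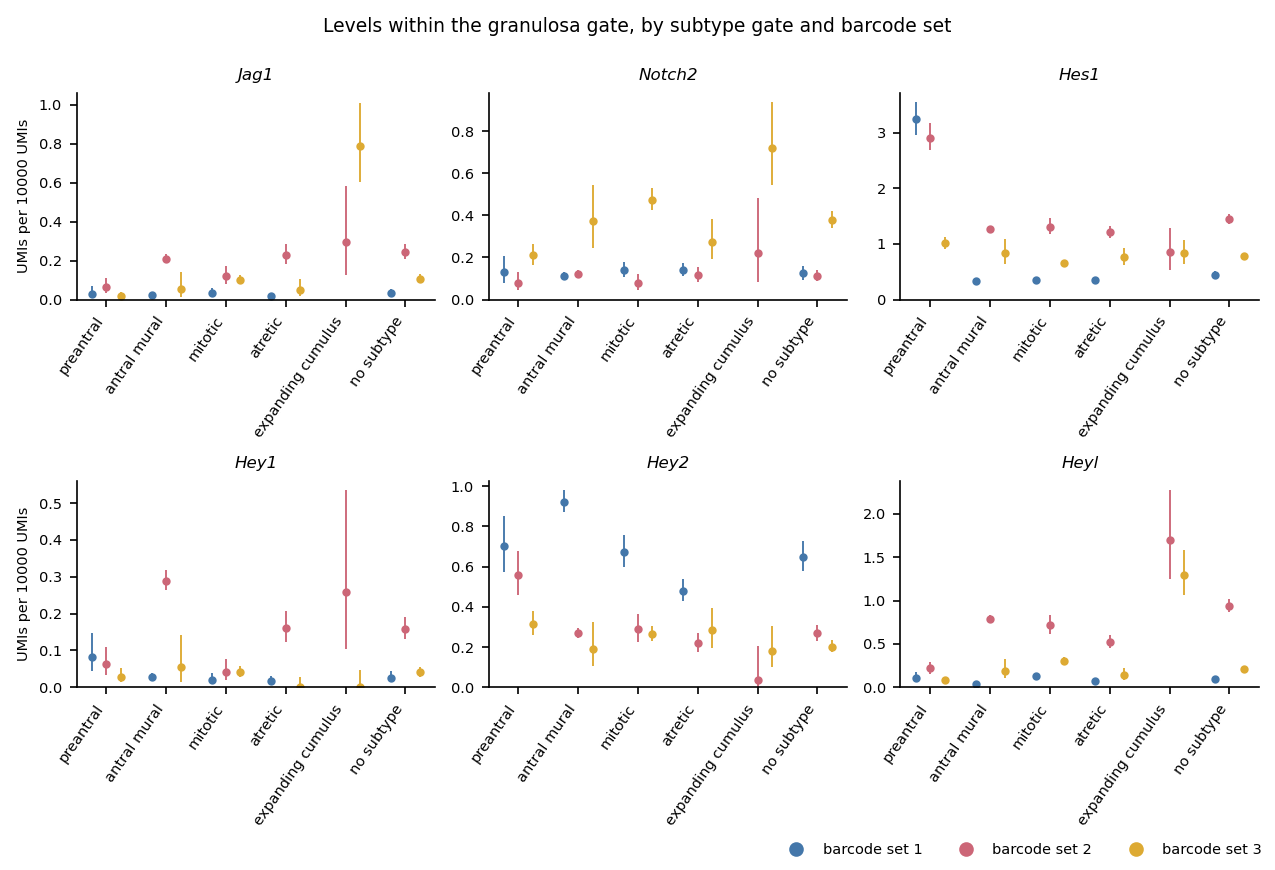
Levels (UMIs per 10000 UMIs) of 6 genes within the granulosa gate, by subtype gate and barcode set, with exact 95% counting intervals. *Hes1* of sets 1 and 2 is high in the preantral type (3.24 and 2.91), *Hey2* of set 1 in the antral mural type (0.923), and *Notch2* of set 3 lies above set 2 in each subtype.

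The 10 genes were placed beside 53 other genes of the pathway, of which 52 were in the table. At least 2-fold above the other gated cells were 9 of 50 with enough UMIs in endothelial cells, 7 of 50 in pericytes, 3 of 50 in smooth muscle and 3 of 50 in GCs. The shares of all genes given above were 12.7%, 12.6%, 7.35% and 11.9%, so the pericyte and smooth muscle counts were near that background. Among the other ligands *Jag2* was 78.8-fold (66.1 to 94.3) and *Dll1* 20.2-fold (16.3 to 25.1) higher in endothelial cells, where *Jag2* had 0.551, 0.709 and 0.760. *Dll3*, a ligand known to act within its own cell, was 3.24-fold (2.84 to 3.71) higher in GCs. The sugar transferases *Mfng* (239-fold, 190 to 306) and *Lfng* (18.6-fold, 15.1 to 22.9), which modify Notch receptors and change their choice of ligand, were endothelial as well, and *Mfng* had 0.905, 0.98 and 1.18.

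*Nrarp*, a feedback target that acts on the Notch intracellular domain, was higher in pericytes (30.4-fold, 26.3 to 35.0), endothelial cells (15.7-fold, 14.0 to 17.6) and smooth muscle (12.0-fold, 10.3 to 13.9). Its pericyte levels were 1.09, 2.60 and 0.654, its smooth muscle levels 0.474, 1.27 and 0.362, and its endothelial levels 0.378, 0.762 and 0.352. Set 2 was the highest in all 3 classes. Set 2 over set 1 was 2.37-fold (1.75 to 3.24) in pericytes, 2.67-fold in smooth muscle and 2.01-fold in endothelial cells, and set 3 over set 2 was 0.252, 0.286 and 0.462.

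**Figure D5:**
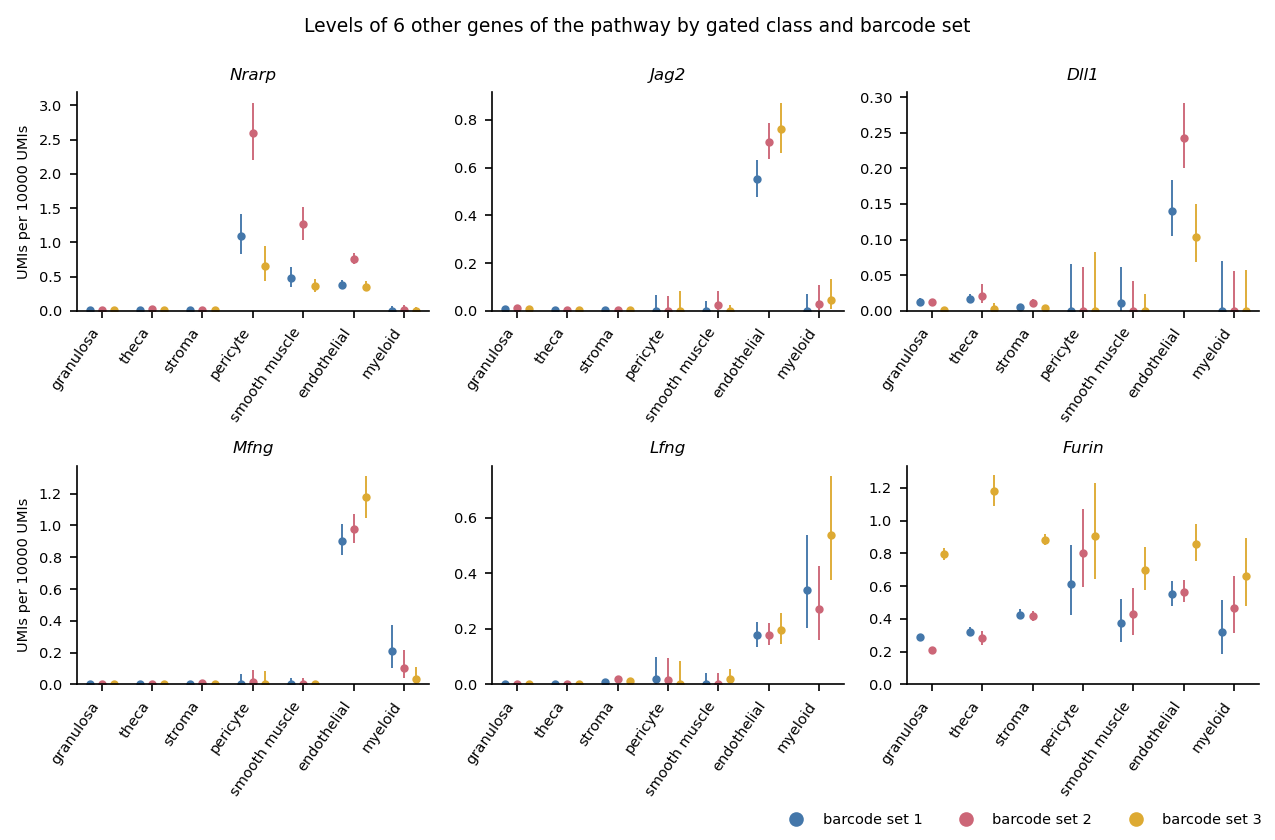
Levels (UMIs per 10000 UMIs) of 6 other genes of the pathway in 7 gated classes, by barcode set, with exact 95% counting intervals. *Nrarp* of set 2 stands highest in pericytes (2.60), smooth muscle (1.27) and endothelial cells (0.762), *Jag2* and *Mfng* stand in endothelial cells, and *Furin* of set 3 is highest in granulosa and theca cells.

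The other genes of the pathway were then compared between sets 1 and 2. In GCs 5 of 44 were higher in set 2 and 13 lower, in theca cells 4 and 12 of 41, in stroma 4 and 5 of 45, in pericytes 2 and 1 of 25, in smooth muscle 3 and 4 of 28 and in endothelial cells 3 and 1 of 40. Over all genes 10.3% were higher and 42.3% lower in GCs, 9.88% and 44.4% in theca cells, 6.50% and 18.3% in stroma, 8.48% and 12.7% in pericytes, 7.76% and 10.4% in smooth muscle, and 4.81% and 9.12% in endothelial cells. The higher ones in GCs were *Dll3* (9.40-fold, 6.81 to 13.3), the corepressors *Tle3* (3.84-fold, 3.41 to 4.33) and *Tle4* (1.72-fold, 1.60 to 1.86), *Nrarp* (2.20-fold, 1.24 to 4.07) and *Jag2* (1.89-fold, 1.05 to 3.53). *Rbpj*, the DNA-binding partner of all Notch receptors, was lower in GCs of set 2 (0.611, 0.574 to 0.650), with 0.90, 0.549 and 0.639 in the 3 sets, where the median gene had 0.722.

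Between sets 2 and 3, 16 of 46 were higher in GCs of set 3 and 8 lower, 13 and 6 of 39 in theca cells, 8 and 11 of 46 in stroma, 0 and 7 of 21 in pericytes, 6 and 5 of 32 in smooth muscle, and 2 and 7 of 39 in endothelial cells. The shares of all genes were 36.6% higher and 15.8% lower in GCs, 37.6% and 17.1% in theca cells, 21.8% and 21.8% in stroma, 15% and 17.6% in pericytes, 19.3% and 17.0% in smooth muscle, and 10.8% and 16.7% in endothelial cells, so the counts in GCs and theca cells were near the background. *Furin*, the protease that cuts the receptor precursor on its way to the surface, was 3.77-fold higher in GCs, 4.21-fold in theca cells and 2.13-fold in stroma. It was also among the genes higher in smooth muscle and endothelial cells. The median ratio of those with enough UMIs was 1.22 in GCs (46 genes) and 0.792 in endothelial cells (39 genes), against 1.25 and 0.957 over all genes.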

How the data were processed

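The deposited file was 1 table of natural log values, ln(1 + UMIs per 10000 UMIs of the cell), which the authors made with Cell Ranger and Seurat on mm10 per the labels (versions not given in the sources used here). UMIs were recovered by inverting this formula, and 100% of values came out whole within 0.01 UMI. Each set was checked as deposited, with 81367055, 72906577 and 85756955 UMIs, and no cell had under 500. Cells were gated on scores from marker lists (score of at least 0.2, ahead of the next class by 0.1, and 2 UMIs of *Cyp17a1* and *Insl3* for theca). The scoring rule and its limits were set after cell numbers and levels had been seen. The 10 genes and the lists were chosen with earlier results of these data known. The rule for named genes took all 10, other pathway genes past the fold or at a level of at least 0.5 in a class named, and the genes most alike in level. Intervals are exact (Poisson for levels, Clopper-Pearson for shares, binomial for ratios) at 95%. Louvain clustering used 2000 variable genes without the pathway genes (30 components, 15 neighbours, resolution 1, scikit-learn 1.9.0 and python-igraph 0.11.9). Scrublet, run in scanpy 1.11.5, called 70 of 31776 cells (0.220%), which was taken as not having worked, and no cell was removed as a doublet. The scripts were tested on simulated data. Alternatives tried were other averages, totals, depth filters, gates, Louvain classes, thinning to 3000 UMIs and each set alone. No test between conditions was made because each is 1 library.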

Additional observations from a re-analysis of the deposited data

Results flagged for a closer look

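*Jag1* went in different directions by class between barcode sets 1 and 2. Its ratio of set 2 over set 1 was 7.78 in GCs and 1.5 in endothelial cells, and 0.640 in stroma, and the difference between classes was not tested.

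*Notch3* had a ratio of 1.52 in smooth muscle and 0.654 in stroma for the same sets, which was not tested either. Within the smooth muscle cells that lay in pericyte clusters *Notch3* was 4.98 in set 1 and 5.48 in set 2. These cells were 31 of 147 and 41 of 135 of the gate, and the part of this share in the ratio was not tested. *Notch2* had ratios of set 3 over set 2 of 3.41 in GCs and 2.15 in theca cells but 0.431 in pericytes, the last from 25 and 8 UMIs, and the difference was not tested.

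*Notch2* was also seen outside the gated classes. In cluster 10 of set 3, 368 cells with a median of 3365 UMIs, its level was 0.987 (0.850 to 1.14), and *Notch2* was itself among the leading genes. The leading genes also included *Ooep* and *Dppa3*, known from oocytes, and *Hbb-bs* and *Hba-a1*, known from red blood cells. The gate that took most of its cells, stroma, took 14.7%. The cluster was left unnamed.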

How the results depend on the processing

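The counts of genes and of gene and class pairs were recomputed under other ways of averaging, scaling, gating and filtering, and these totals kept within 1.5 times their values, while counts split by direction or by class did not always. Genes highest in endothelial cells numbered 6, and 4 to 6 under the alternatives, the 4 being by Louvain cluster (*Dll4*, *Notch1*, *Notch4* and *Hey1*). Gene and class pairs past 2-fold numbered 16 (13 to 17). Pairs past 1.5-fold numbered 24 for set 2 against 1 (17 after thinning to 3000 UMIs, 31 with no minimum) and 29 for set 3 against 2 (21 and 34). The thinned counts have fewer UMIs by construction. Without the cells of shared barcodes they were 24 and 29, and after division by the median ratio of all genes 28 (25 higher and 3 lower, against 19 and 5, with theca cells going from 3 higher to 6) and 31 (2 and 29, against 2 and 27), both chosen after seeing the data. Of the single pairs, 10 of 16, 17 of 24 and 25 of 29 were past the fold in every alternative that could be run. Reversed were *Notch2* in pericytes in set 3 alone (0.705) and, by Louvain cluster, *Jag1* (0.936) and *Notch3* (0.403) in smooth muscle, whose gated cells split between pericyte and other clusters as given above. *Jag1* in endothelial cells, set 2 over 1, was past 1.5-fold in 5 of 12 alternatives, and *Hes1* and *Notch2* in pericytes past 2-fold in 8 of 13. By cluster, smooth muscle was 1 cluster of set 3 alone, because the like clusters of sets 1 and 2 counted as stroma by the gate of most of their gated cells, so no ratio of set 2 over 1 was had there. No paired analysis was possible because each time point is 1 library and the columns are not tied to the libraries. Pericytes, with 98 to 136 cells a set, limit what can be said of their low genes.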

Other observations

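Among the Louvain clusters of GCs in set 2, *Heyl* and *Hey1* had their highest levels in different clusters. In cluster 7 of set 2 (567 cells, led by *Ihh*, *Grem1* and *Edn2*) *Heyl* was 2.23 (2.08 to 2.39) and *Hey1* 0.116 (0.0833 to 0.156). In cluster 3 (1041 cells, led by *Comp*, *Npy* and *Tnfsf11*) *Heyl* was 0.138 (0.111 to 0.168) and *Hey1* 0.474 (0.424 to 0.529). Other clusters had both, such as cluster 5 (0.312 and 0.315) and cluster 13 (1.06 and 0.193). *Jag1* was highest of the granulosa clusters of set 2 in cluster 5 (612 cells, led by *Gclc*, *Nrn1* and *Srxn1*), at 0.735 (0.649 to 0.829), against 0.187 and 0.196 in clusters 7 and 3. These clusters were made from the same cells, so the values are a description with no test.

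The larger 2 of the stroma clusters of set 2 differed too. *Heyl* was 2.63 (2.51 to 2.75) in cluster 2 (1070 cells, led by *Col15a1*, *Adamts4* and *Plac8*) and 0.406 (0.363 to 0.453) in cluster 1 (1359 cells, led by *Tcf21*, *Sfrp1* and *Frem1*), while *Hes1* was 1.15 (1.07 to 1.23) and 2.42 (2.31 to 2.53). *Hey2* in set 1 was 1.00 (0.926 to 1.09) in cluster 3, led by *Comp* and *Cyp19a1*.

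Over 19 class-by-set groups of 100 or more cells, each of the 10 genes was set beside the others of a list of 8338 genes. The measure was Pearson's r of log2(level + 0.1). It is a description in which groups of the same set share a library. The most alike were *Arhgef15* for *Notch4* (0.996), *Gpc6* for *Notch3* (0.989), *Scarf1* for *Dll4* (0.988), *Cav2* for *Jag1* (0.953), *BC028528* for *Notch1* (0.952), *Zbtb4* for *Hes1* (0.901), *Map3k5* for *Hey2* (0.899), *Vasn* for *Heyl* (0.890), *Eps8* for *Notch2* (0.888) and *Tsc22d2* for *Hey1* (0.870).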
